A study of Mus musculus with 18 samples.

Results

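The genes described here encode 10 mouse chaperones of the cytosol and of the mitochondrial matrix: Hspa8, Hspa1b, Hsph1, Hspa4, Dnaja1, Dnajb1, Hsp90aa1, Hsp90ab1, Hspd1 and Hspe1. They were taken by name from a table of 23418 genes, and all 10 were found. The cells were leukemia cells from C57BL/6 mice transformed by 1 of 3 MLL fusion constructs, MLL-AF9, MLL-AF6 or MLL-AF1p. AF9 is a nuclear partner protein, whereas AF6 and AF1p (also called Eps15) normally reside in the cytoplasm. Cells of each construct received solvent or 6 µM of the compound MI-2-2, which blocks the binding of menin to MLL, over a culture of 6 days. All 6 groups carried DMSO at 0.25% and had their medium and compound renewed on day 3. Polyadenylated RNA was sequenced from 3 replicates per group, 18 libraries in all, and every group therefore carried a fusion: untransformed cells were not part of the comparison. The labels do not say whether replicates were separate cultures or clones, so p-values measure only how these libraries varied, which may be technical variation. In such bulk RNA, fewer cells of a type and less RNA per cell cannot be told apart.

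Chaperones of the Hsp70 class bind short hydrophobic stretches of unfolded proteins and release them in a cycle driven by ATP. J-domain proteins deliver clients and speed ATP hydrolysis, and Hsp110 proteins exchange the nucleotide that remains. Hsp90 takes over late folding intermediates such as kinases and steroid receptors with the help of co-chaperones, and the Hsp60 and Hsp10 chaperonin folds proteins imported into mitochondria. Many of these genes are also targets of the heat shock factor HSF1, which binds inverted repeats of the pentamer NGAAN called heat shock elements.

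Values were RPKM, reads per kilobase of gene per 1000000 counted reads. The libraries held about 21180000 to 56300000 counted reads, with the MLL-AF1p libraries the deepest, at 48880000 and more. Differences are given as MI-2-2 minus DMSO on the log2(RPKM + 0.5) scale with their standard error (SE), from 1 limma fit to the 11238 genes with at least 1 RPKM in at least 3 libraries. A gene was called higher or lower at a Benjamini-Hochberg adjusted p under 0.05. As a check of the treatment, the fusion target Meis1 fell with MI-2-2 in every construct (group means of 24.1 and 6.12 RPKM in MLL-AF1p, 29.5 and 4.59 in MLL-AF6, 5.76 and 0.342 in MLL-AF9 cells). Of the 5 fusion targets looked at, all 5 fell in MLL-AF6 and in MLL-AF1p cells. In MLL-AF9 cells 4 fell and Mef2c rose, from 0.0791 to 1.69 RPKM (log2 difference 1.90, limma adjusted p = 7.70e-10). The leukocyte gene Ptprc stood between 18.9 and 36.3 RPKM in all 6 group means. The erythroid genes Hba-a1 and Hbb-b1, the T cell gene Cd3e and the B cell gene Ms4a1 were listed at 0 in every library. Other such genes were low but not at 0: group means ran from 0.254 to 0.837 RPKM for the erythroid gene Klf1. They ran from 0.0521 to 0.246 for the T cell gene Cd3d and from 0.0918 to 0.256 for the B cell gene Cd79a. Of the B cell genes, Cd79b was higher, at 2.32 and 0.726 RPKM (DMSO and MI-2-2) in MLL-AF6, 1.52 and 0.729 in MLL-AF1p and 0.0912 and 0.00974 in MLL-AF9 cells, and fell in MLL-AF6 (-1.20, limma adjusted p = 5.25e-08) and MLL-AF1p (-0.71, 2.73e-05). Its part in the chaperone values was not tested.

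Of the 10 genes, 9 passed the filter and Hspa1b did not. Their response differed by construct. In MLL-AF1p cells 5 of the 9 rose with MI-2-2 and none fell: Hspa8, Hsph1, Hspa4, Dnaja1 and Dnajb1, that is the Hsp70, Hsp110 and J-domain genes. Over all genes tested in those cells, 19.1% were called higher and 26.3% lower. In MLL-AF6 cells none rose and 4 fell (Hsp90aa1, Hsp90ab1, Hspa4 and Hspd1), where 18% of all genes were called higher and 38.9% lower (2025 and 4377 genes, and 2441 and 3384 with median centring). In MLL-AF9 cells Dnajb1 rose and both Hsp90 genes fell, against 28.5% and 27.9% of all genes. As shares of the 9 genes, 55.6% were higher in MLL-AF1p, above that of all genes. In MLL-AF6 44.4% were lower, near that of all genes, and 0% higher. In MLL-AF9 11.1% were higher and 22.2% lower, both under those of all genes. The median difference of the 9 genes was 0.22 in MLL-AF1p, -0.28 in MLL-AF6 and 0.04 in MLL-AF9 cells, beside medians over all genes of -0.06, -0.16 and 0.00. With the libraries numbered 3 left out of every group, a choice made after seeing the data, 2 genes instead of 5 were called higher in MLL-AF1p and 1 instead of 4 lower in MLL-AF6. With median centring 2 were called lower in MLL-AF6 and none higher in MLL-AF9. When any 1 library was left out, 3 to 5 were called higher in MLL-AF1p (3 without its DMSO replicate 3 or MI-2-2 replicate 1). In MLL-AF6 2 to 6 were called lower (2 without its DMSO replicate 3, MI-2-2 replicate 1 or MI-2-2 replicate 3). In MLL-AF9 4 were called higher without DMSO replicate 1 and 0 without DMSO replicate 2.

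**Figure D1:**
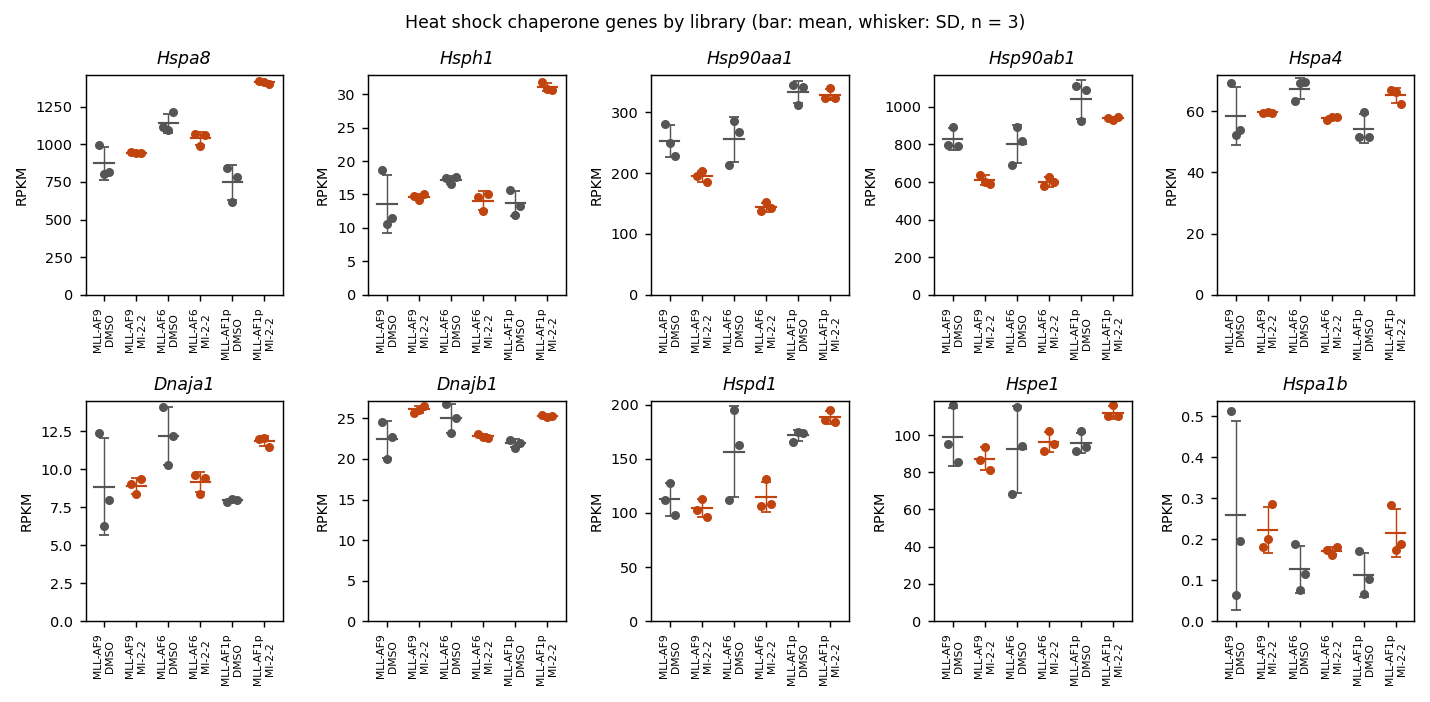
RPKM of the 10 chaperone genes in each of the 18 libraries (points; grey DMSO, orange MI-2-2), with the group mean as a bar and the SD as a whisker. Hspa8 and Hsph1 with MI-2-2 in MLL-AF1p cells stand above every other library, at 1400 to 1421 and 30.6 to 31.8 RPKM, and Hspa1b stays under 1 RPKM throughout.

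Promoter windows from RefSeq (GRCm38.p6; the expression table itself was made on mm9) were matched by symbol for 7 of the 10 genes, all but Hspa8, Hsp90aa1 and Hsp90ab1. Each window runs from 250 bases before to 50 bases after an annotated start, and positions count that start as 0. The windows were searched for a heat shock element of 3 units and for the 2-unit forms GAANNTTC and TTCNNGAA. The 3-unit form is GAANNTTC followed by NNGAA, or its reverse complement, so both 2-unit forms lie inside it, and both strands were read. Of all 32851 windows of that length, 0.603% hold the 3-unit letters, 7.86% GAANNTTC and 8.52% TTCNNGAA. The stretches below show the members with a match and also Hspa4 and Dnajb1, whose windows hold none of the 3 forms. Both of these genes rose in MLL-AF1p cells. Capitals mark the matched letters.
Hsph1, chr5:149636351-149636380, minus strand: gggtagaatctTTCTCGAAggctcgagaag
Hsph1, chr5:149636287-149636316, minus strand: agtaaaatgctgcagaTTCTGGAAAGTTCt
Hspe1, chr1:55088053-55088082, plus strand: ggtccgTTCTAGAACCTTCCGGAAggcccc
Dnaja1, chr4:40722318-40722467, plus strand: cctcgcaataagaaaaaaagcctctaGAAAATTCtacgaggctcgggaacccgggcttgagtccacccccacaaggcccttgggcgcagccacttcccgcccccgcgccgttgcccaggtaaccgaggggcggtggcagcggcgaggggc
Hspa1b, chr17:34959239-34959388, minus strand: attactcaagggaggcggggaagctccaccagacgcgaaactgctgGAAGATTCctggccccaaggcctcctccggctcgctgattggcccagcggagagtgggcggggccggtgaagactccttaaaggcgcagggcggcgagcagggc
Hspa4, chr11:53300480-53300629, minus strand: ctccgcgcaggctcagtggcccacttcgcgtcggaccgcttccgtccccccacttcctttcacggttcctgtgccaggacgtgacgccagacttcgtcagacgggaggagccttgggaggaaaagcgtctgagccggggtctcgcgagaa
Dnajb1, chr8:83608025-83608174, plus strand: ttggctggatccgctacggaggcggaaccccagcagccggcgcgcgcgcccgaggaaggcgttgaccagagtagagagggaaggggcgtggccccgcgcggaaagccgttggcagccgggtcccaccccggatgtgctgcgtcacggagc
The Hsph1 stretches cover positions -44 to -15 and 20 to 49 of its first start, and the 3-unit match lies at 36 to 48. Both stretches touch a GENCODE untranslated region of Hsph1. For Hspe1 the stretch covers -95 to -66 and holds overlapping 3-unit matches in both orientations, from -89 to -72. The same bases on the opposite strand lie at -144 to -127 of the second annotated start of Hspd1, since Hspd1 and Hspe1 are divergent neighbours. The printed Hspe1 stretch touches a GENCODE untranslated region of Hspd1. The remaining stretches cover -150 to -1. Dnaja1 has GAANNTTC at -124 to -117 of its first start and none of the 3 forms at its other annotated starts. Hspa1b has GAANNTTC at -104 to -97. A match describes the letters only. Of the genes that rose in MLL-AF1p cells, Hsph1 thus had the 3-unit letters and Dnaja1 only GAANNTTC, at 1 of its starts. Hspe1, which passed the test in no construct, had the 3-unit letters as well. Only exact letters inside these windows were searched, so a window without a match may still hold or lie near an element. Hspa8, which also rose, had no window. The link between these letters and the response was not tested.

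**Figure D2:**
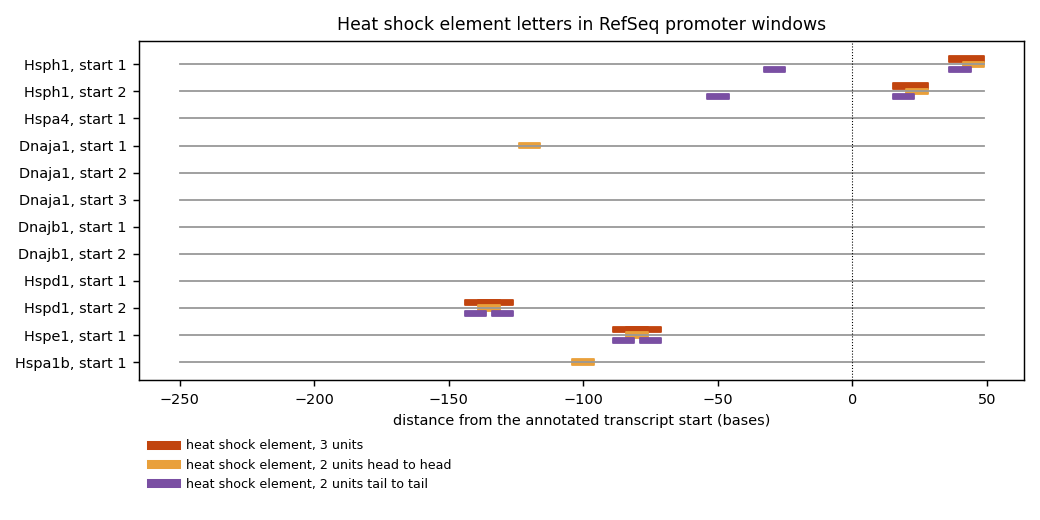
Distance in bases from each annotated start (x axis, start at 0) of the heat shock element letters found in the promoter windows of 7 chaperone genes, 1 line per window. Red bars mark the 3-unit form, yellow GAANNTTC and purple TTCNNGAA; the 3-unit form appears in Hsph1, in Hspe1 and at the second start of Hspd1.

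Hspa8 encodes the constitutive cytosolic Hsp70 (Hsc70) and had the highest mean RPKM of the 10 genes in every group except MLL-AF1p DMSO. In MLL-AF1p cells it stood at 842, 619 and 782 RPKM in DMSO replicates 1 to 3 and at 1421, 1416 and 1400 with MI-2-2. The groups did not overlap, and the means of 748 ± 115 and 1412 ± 11.3 RPKM (SD, n = 3) differed by a factor of 1.89, a log2 difference of 0.93 (SE 0.10, limma adjusted p = 2.19e-06). In MLL-AF9 cells the values were 998, 805 and 816 RPKM in DMSO and 948, 942 and 939 with MI-2-2, where the treated libraries lay inside the range of the controls (0.12, adjusted p = 0.327). In MLL-AF6 cells they were 1112, 1097 and 1212 RPKM in DMSO and 1068, 987 and 1062 with MI-2-2. All treated MLL-AF6 libraries lay below all controls, yet the difference of -0.13 did not pass (adjusted p = 0.262), and it turned to 0.13 under quantile normalization. In the order of the group means, MLL-AF1p with MI-2-2 was followed by MLL-AF6 DMSO (1140), MLL-AF6 MI-2-2 (1039), MLL-AF9 MI-2-2 (943), MLL-AF9 DMSO (873) and MLL-AF1p DMSO (748). The last 3 neighbours in that order overlapped in range, and the first 4 did not.

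Hspa1b encodes a stress-inducible cytosolic Hsp70 and is the classical reporter of heat shock. It was nearly silent, between 0.0648 and 0.513 RPKM or 4 to 42 recovered reads per library, and no library reached 1 RPKM. The highest value was in MLL-AF9 DMSO replicate 1 at 0.513 RPKM and the lowest in MLL-AF9 DMSO replicate 2 at 0.0648, so the controls of 1 construct spanned the whole range. With MI-2-2 the group means were 0.215, 0.172 and 0.222 RPKM in MLL-AF1p, MLL-AF6 and MLL-AF9, beside 0.113, 0.126 and 0.258 in DMSO, and neighbouring groups in the order of means all overlapped. It was not tested. Its copy Hspa1a shares 93.6% of 2735 aligned transcript bases with it, so reads could be split between the 2 genes or lost. Hspa1a had group means from 0 to 0.045 RPKM.

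Hsph1 encodes Hsp105, an Hsp110 protein that exchanges nucleotide on Hsp70 and helps it pull aggregates apart. It had the largest fold of the 9 genes: in MLL-AF1p cells 15.7, 12 and 13.3 RPKM in DMSO and 31.8, 30.8 and 30.6 with MI-2-2. The treated libraries were above every other library of the study, and the means of 13.7 ± 1.86 and 31.1 ± 0.618 RPKM (SD, n = 3) differed by a factor of 2.28 (log2 difference 1.17, SE 0.15, limma adjusted p = 1.64e-05). In MLL-AF9 cells it read 18.6, 10.6 and 11.5 RPKM in DMSO and 14.8, 14.1 and 15 with MI-2-2. The first control stood above and the other controls below all treated libraries. The difference was 0.15 (adjusted p = 0.413). Leaving out the first control gave 0.39 (adjusted p = 0.00278). In MLL-AF6 cells the values were 17.4, 16.5 and 17.6 RPKM against 14.6, 12.5 and 15.1, without overlap, a difference of -0.28 (adjusted p = 0.118). That difference passed without MLL-AF9 DMSO replicate 1, which feeds the shared estimate of spread (adjusted p = 0.0103).

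Hspa4 encodes Apg-2, another Hsp110 protein, and stood above Hsph1 in RPKM in every library. It read 51.6, 59.7 and 51.5 RPKM in MLL-AF1p DMSO libraries and 66.8, 66.3 and 62.5 with MI-2-2, without overlap, and rose by a factor of 1.2 (log2 difference 0.27, SE 0.09, limma adjusted p = 0.0217). That call was lost without DMSO replicate 1 (adjusted p = 0.0755), DMSO replicate 3 (0.0824), MI-2-2 replicate 1 (0.0694) or MI-2-2 replicate 2 (0.0616). In MLL-AF6 cells it fell from 63.4, 69.4 and 69.5 RPKM to 57.2, 58.2 and 58.2 (-0.22, SE 0.09, adjusted p = 0.0448). The fall kept its sign but missed the threshold without filtering (0.0605), with median centring (0.2), and when any 1 of MLL-AF6 DMSO replicates 2 and 3, any MLL-AF6 or MLL-AF9 MI-2-2 library, MLL-AF1p DMSO replicate 3 or any MLL-AF1p MI-2-2 library was left out (0.051 to 0.123). In MLL-AF9 cells it held 69.2, 52.2 and 53.9 RPKM against 59.6, 59.9 and 59.6. Its treated libraries there lay within the range of the controls, with an SD of 0.2 beside 9.38 RPKM (difference 0.04, adjusted p = 0.709, and -0.04 with median centring), and without MLL-AF9 DMSO replicate 1 the difference was 0.17 (adjusted p = 0.0379).

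Dnaja1 encodes Hdj2, a J-domain partner of Hsc70. Its RPKM cannot be set beside those of the other genes, because the authors' table gives it a length of 16707 bases, more than the 12498 bases of its whole RefSeq gene. Within the gene the same length divides every library, but which bases were counted was not checked, so reads from outside Dnaja1 may be included. In MLL-AF1p cells Dnaja1 read 7.87, 8.04 and 8.01 RPKM in DMSO and 12, 12.1 and 11.5 with MI-2-2. It rose there by a factor of 1.49 (log2 difference 0.54, SE 0.17, limma adjusted p = 0.0144), with no overlap and a control SD of 0.0892 RPKM. In MLL-AF6 cells the values were 14.1, 10.3 and 12.2 RPKM against 9.61, 8.4 and 9.45. These groups did not overlap either, but the difference of -0.38 missed the threshold (adjusted p = 0.0603). It passed without MLL-AF9 DMSO replicate 1 (0.00478), MLL-AF9 DMSO replicate 2 (0.0186) or MLL-AF6 DMSO replicate 2 (0.0308). In MLL-AF9 cells the controls at 12.4, 6.24 and 7.96 RPKM spanned the treated libraries at 9.04, 8.35 and 9.4 (0.06, adjusted p = 0.78, and -0.02 with median centring), and without DMSO replicate 1 the difference was 0.32 (adjusted p = 0.0262).

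Dnajb1 encodes Hsp40, the J-domain protein that drives disaggregation with Hsp70 and Hsp110 and also holds HSF1 in check. It rose by a like small amount in MLL-AF9 and MLL-AF1p cells. In MLL-AF9 cells it went from 24.6, 20 and 22.7 RPKM to 25.7, 26.1 and 26.6 (0.22, SE 0.07, limma adjusted p = 0.0114). In MLL-AF1p cells it went from 22.4, 21.4 and 22 RPKM to 25.4, 25.2 and 25.3 (0.21, SE 0.07, adjusted p = 0.0213). Treated and control libraries did not overlap in either construct. The MLL-AF9 call was lost without DMSO replicate 2 (0.0542) and with median centring (0.0718). The MLL-AF1p call was lost without DMSO replicate 2 (0.0628), DMSO replicate 3 (0.0515), MI-2-2 replicate 1 (0.058) or MI-2-2 replicate 3 (0.0539). In MLL-AF6 cells the gene had 26.8, 23.2 and 25.1 RPKM in DMSO and 23.1, 22.7 and 22.6 with MI-2-2, a difference of -0.13 in the other direction (adjusted p = 0.114) that passed without MLL-AF6 DMSO replicate 2 (0.0435) or MLL-AF9 DMSO replicate 2 (0.0436).

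Hsp90aa1 encodes the stress-inducible Hsp90α. In MLL-AF6 cells it had 214, 286 and 267 RPKM in DMSO and 137, 152 and 143 with MI-2-2. The groups were well apart, and the mean fell to 0.562 of its control, from 256 ± 37.4 to 144 ± 7.74 RPKM (SD, n = 3; log2 difference -0.82, SE 0.09, limma adjusted p = 3.14e-06). In MLL-AF9 cells it fell from 280, 249 and 228 RPKM to 195, 203 and 186, again without overlap (-0.37, SE 0.09, adjusted p = 0.00384). In MLL-AF1p cells the treated libraries at 324, 340 and 323 RPKM lay within the controls at 345, 312 and 342 (-0.02, adjusted p = 0.91, and 0.03 with median centring). Both MLL-AF1p groups stood above every library of the other constructs.

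Hsp90ab1 encodes the constitutive Hsp90β, which was the most abundant of the 10 genes per length in MLL-AF1p DMSO cells. It fell in MLL-AF9 cells from 797, 894 and 793 RPKM to 640, 601 and 592, without overlap (-0.44, SE 0.09, limma adjusted p = 0.000626). In MLL-AF6 cells it fell by a like amount, from 693, 892 and 819 RPKM to 577, 628 and 600 (-0.41, SE 0.09, adjusted p = 0.00116). MLL-AF1p cells held 1111, 922 and 1088 RPKM in DMSO and 938, 929 and 948 with MI-2-2. The treated libraries there lay inside the control range, and the difference of -0.14 did not pass (adjusted p = 0.201) and was 0.10 under quantile normalization.

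Hspd1 encodes Hsp60, the mitochondrial chaperonin. It fell in MLL-AF6 cells, from 112, 195 and 163 RPKM in DMSO to 106, 131 and 108 with MI-2-2, but the groups overlapped (-0.41, SE 0.15, limma adjusted p = 0.028). The call was lost without DMSO replicate 2, the highest control (adjusted p = 0.161), DMSO replicate 3 (0.0889), MI-2-2 replicate 1 (0.095) or MI-2-2 replicate 3 (0.086), and with median centring (0.082). In MLL-AF9 cells the values were 112, 128 and 97.8 RPKM against 103, 113 and 96.7 (-0.11, adjusted p = 0.567). In MLL-AF1p cells they were 166, 175 and 174 RPKM against 186, 195 and 184. All treated MLL-AF1p libraries were above the controls there, and the difference of 0.13 (adjusted p = 0.49) passed only when that construct was fitted alone (adjusted p = 0.0264).

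Hspe1 encodes Hsp10, the lid of the Hsp60 chaperonin. It passed the test in no construct. In MLL-AF9 cells it read 95.3, 116 and 85.5 RPKM in DMSO and 86.7, 93.7 and 81.4 with MI-2-2 (-0.17, limma adjusted p = 0.324), and in MLL-AF6 cells 68.2, 115 and 93.9 against 91.2, 102 and 95.2 (0.09, adjusted p = 0.618). In MLL-AF1p cells it read 91.5, 102 and 93.8 RPKM against 110, 116 and 110, without overlap (0.22, adjusted p = 0.215), and passed when that construct was fitted alone (adjusted p = 0.00813). Hspd1 and Hspe1 lie head to head on chromosome 1 (55077833 to 55088243 and 55088148 to 55091317 in GRCm38), their RefSeq spans overlap by 96 bases, and the library kit does not mark strand, so reads from the overlap cannot be assigned to either.

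**Figure D3:**
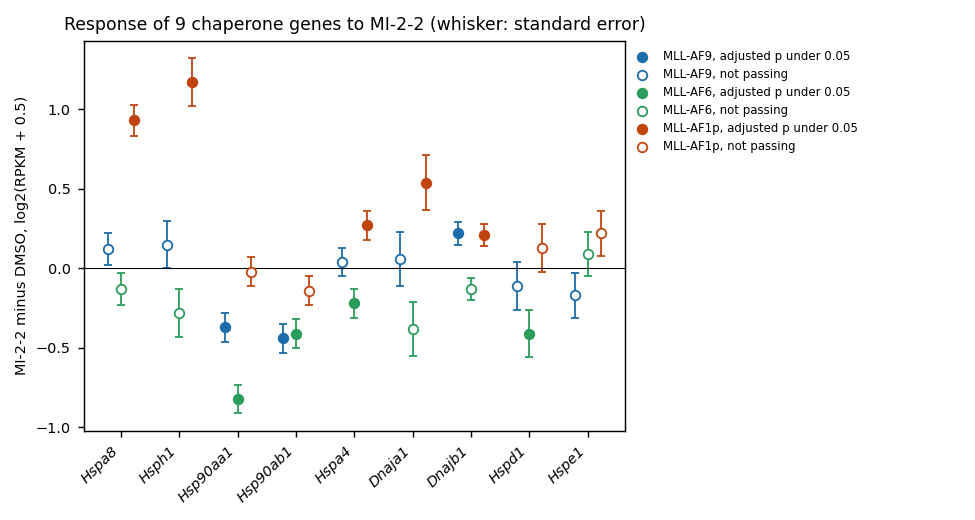
MI-2-2 minus DMSO on the log2(RPKM + 0.5) scale (y axis) for the 9 tested chaperone genes in MLL-AF9 (blue), MLL-AF6 (green) and MLL-AF1p cells (orange); whiskers are standard errors, and filled points passed an adjusted p under 0.05. The MLL-AF1p points of Hspa8 (0.93) and Hsph1 (1.17) stand above the rest, and the lowest point is Hsp90aa1 in MLL-AF6 cells (-0.82).

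The constructs were compared by testing the difference between their MI-2-2 effects in the same fit. Between MLL-AF6 and MLL-AF1p cells 6 of the 9 genes differed, all with the lower value in MLL-AF6 (31.1% of all genes differed in either direction, 19.5% with the lower value in MLL-AF6). These were Hsph1 (-1.45, SE 0.21, limma adjusted p = 0.00016), Hspa8 (-1.06, SE 0.14, 6.52e-05), Dnaja1 (-0.93, SE 0.23, 0.00769), Hsp90aa1 (-0.80, SE 0.13, 0.000423), Hspa4 (-0.48, SE 0.12, 0.00829) and Dnajb1 (-0.33, SE 0.10, 0.015). Between MLL-AF9 and MLL-AF1p cells 2 differed, Hsph1 (-1.01, SE 0.21, 0.00201) and Hspa8 (-0.81, SE 0.14, 0.000482), both lower in MLL-AF9. Of all genes, 35.1% differed in that pair in either direction, 13.6% with the lower value in MLL-AF9. Between MLL-AF9 and MLL-AF6 cells 2 differed, Hsp90aa1 (0.45, SE 0.13, 0.0178) and Dnajb1 (0.35, SE 0.10, 0.0115), both higher in MLL-AF9. Of all genes, 33.1% differed in that pair in either direction, and 2702 of 11238 had the higher value in MLL-AF9. For Hsp90ab1, the difference of effects passed in no pair: -0.26 for MLL-AF6 against MLL-AF1p (adjusted p = 0.124), -0.29 for MLL-AF9 against MLL-AF1p (0.0821) and -0.03 for MLL-AF9 against MLL-AF6 (0.879). No call of these differences was lost when any 1 library was left out, and the number called was 6 to 8 for the first pair, 2 to 5 for the second (5 without MLL-AF6 DMSO replicate 1) and 2 to 6 for the third. Without MLL-AF6 DMSO replicate 1 the first of these Hsp90ab1 values became -0.36 (0.0219), and the second passed at -0.29 (0.0375). The MLL-AF9 against MLL-AF6 calls depended on scaling: with median centring Hsp90aa1 was at 0.29 (0.132) and Dnajb1 at 0.19 (0.142). One library mattered there as well: without MLL-AF9 DMSO replicate 1, 6 of the 9 genes differed, among them Hsph1 (0.68, adjusted p = 0.000988), Dnaja1 (0.70, 0.0025), Hspa4 (0.39, 0.00325) and Hspa8 (0.35, 0.0411).

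Levels in DMSO were compared between constructs, on control libraries that also enter the MI-2-2 effects. Against MLL-AF1p, MLL-AF6 cells held more Hspa8 (0.62, SE 0.10, limma adjusted p = 0.000118), Dnaja1 (0.57), Hspa4 (0.31) and Dnajb1 (0.19) and less Hsp90aa1 (-0.39, SE 0.09, 0.00323) and Hsp90ab1 (-0.38, SE 0.09, 0.00238), 6 genes (4 to 7 without any 1 library) where 52.5% of all genes were called. Of these, Dnaja1 was lost without MLL-AF6 DMSO replicate 1 (0.0503), and Dnajb1 without MLL-AF6 DMSO replicate 1 (0.137) or 3 (0.0714) or MLL-AF1p DMSO replicate 2 (0.0819) or 3 (0.0666). MLL-AF9 cells held less Hsp90aa1 (-0.40, SE 0.09, 0.00166), Hsp90ab1 (-0.33) and Hspd1 (-0.62, SE 0.15, 0.00202) than MLL-AF1p cells, 3 genes where 65.1% were called. Against MLL-AF6, MLL-AF9 cells held less Hspa8 (-0.39, SE 0.10, 0.00364), Hsph1 (-0.37, 0.0466), Hspa4 (-0.21, 0.0499), Dnaja1 (-0.48, 0.0242) and Hspd1 (-0.45, 0.0195), where 53.6% were called. Of these last 5, only the groups of Hspa8 did not overlap (27.2% of all genes were lower in MLL-AF9 without overlap), and the call of Hspa8 alone was kept when any 1 library was left out. The number called ranged from 1 to 6: it was 1 without MLL-AF9 DMSO replicate 3 or MLL-AF6 DMSO replicate 3, 2 without MLL-AF9 DMSO replicate 2, and 3 in most other cases.

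The summed share of the 10 genes among counted reads was 0.551% to 0.65% in MLL-AF1p DMSO libraries and 0.743% to 0.753% with MI-2-2. In MLL-AF6 cells it was 0.568% to 0.653% and 0.495% to 0.502%, and in MLL-AF9 cells 0.514% to 0.591% and 0.485% to 0.502%. The groups were apart in all 3 constructs, upward in MLL-AF1p and downward in the others, and the sum is mostly Hspa8 and Hsp90ab1. Within a library, the ratio of Hspa8 to Hsp90ab1 was 0.671 to 0.758 in MLL-AF1p DMSO cells and 1.48 to 1.52 with MI-2-2. The same ratio was 0.9 to 1.25 and 1.48 to 1.58 in MLL-AF9 cells, again apart, and 1.23 to 1.6 and 1.57 to 1.85 in MLL-AF6 cells, with overlap. So the balance of Hsc70 over Hsp90β transcripts was higher with MI-2-2 in the mean of every construct (0.716 and 1.51, 1.06 and 1.54, 1.44 and 1.73), with Hspa8 rising in MLL-AF1p and Hsp90ab1 falling in MLL-AF6 and MLL-AF9 cells. The ratio of Hsph1 to Hspa4 separated only the MI-2-2 libraries of MLL-AF1p (0.464 to 0.491) from the other 15 libraries (0.201 to 0.304). Hsp90aa1 over Hsp90ab1 was lowest in MLL-AF6 cells with MI-2-2 (0.237 to 0.242), apart from their controls (0.309 to 0.326). The ratio of Hspd1 to Hspe1 in MLL-AF6 cells was 1.65 to 1.73 in DMSO and 1.14 to 1.28 with MI-2-2, much steadier among controls than either gene alone. In MLL-AF9 cells that ratio was 1.1 to 1.17 and 1.19 to 1.2, and in MLL-AF1p cells 1.72 to 1.85 and 1.67 to 1.69. Ratios are given as values, with no test.

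**Figure D4:**
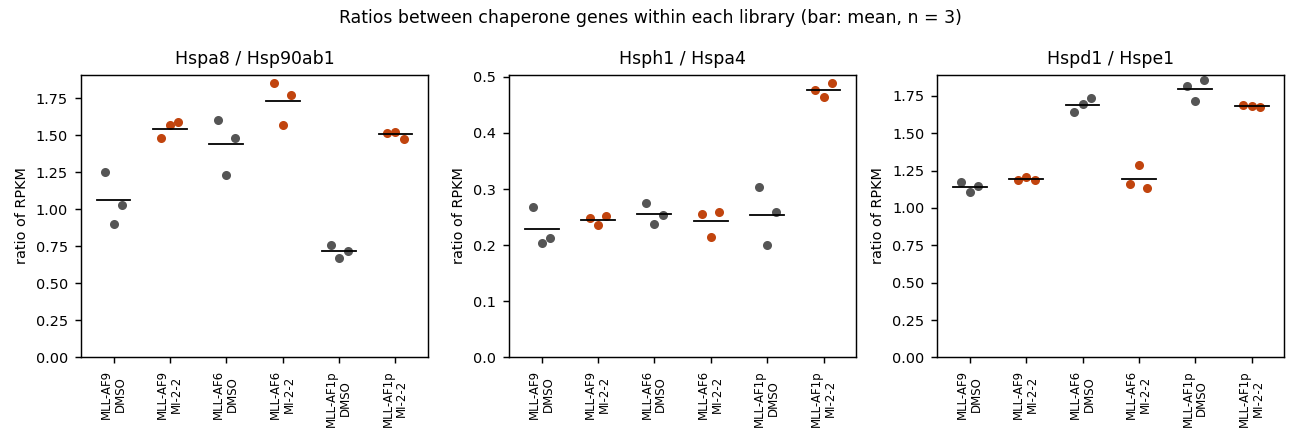
Ratio of RPKM within each library (y axis, from 0) for Hspa8 over Hsp90ab1, Hsph1 over Hspa4 and Hspd1 over Hspe1, by group (grey DMSO, orange MI-2-2; the bar is the mean of 3 libraries). The middle panel sets the MLL-AF1p MI-2-2 libraries (0.464 to 0.491) apart from all others, and the right panel shows MLL-AF6 cells at 1.65 to 1.73 in DMSO and 1.14 to 1.28 with MI-2-2.

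Libraries of 1 group also differed from each other across several of the genes together. In MLL-AF9 DMSO cells replicate 1 was the highest for Hspa8, Hsph1, Hsp90aa1, Hspa4, Dnaja1 and Dnajb1, and replicate 2 was the highest for Hsp90ab1, Hspd1 and Hspe1 and the lowest for Hspa8, Hsph1, Hspa4, Dnaja1 and Dnajb1. In MLL-AF6 cells replicate 2 was the highest for Hsp90aa1, Hsp90ab1, Hspd1 and Hspe1 and the lowest for Hspa8, Hsph1 and Dnaja1, in both DMSO and MI-2-2. In these 3 groups Hsp90ab1, Hspd1 and Hspe1 thus stood high in the same library in which Hspa8, Hsph1 and Dnaja1 stood low. Other groups had other orders: in MLL-AF1p DMSO replicate 2, Hspd1, Hspe1, Dnaja1 and Hspa4 were the highest, and Hsp90ab1 was the lowest together with Hsp90aa1, Hspa8, Hsph1 and Dnajb1. Leaving each library out shows how the calls moved, but it does not measure the part of this spread in the results.

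The chaperone network was followed through 95 further genes in 8 lists, of which 94 were in the table and 82 passed the filter. In MLL-AF1p cells 11 rose and 23 fell, in MLL-AF6 cells 3 rose and 51 fell, and in MLL-AF9 cells 3 rose and 43 fell, with medians of -0.09, -0.28 and -0.24 beside -0.06, -0.16 and 0.00 over all genes. As shares of the 82 these are 13.4% higher and 28% lower in MLL-AF1p, beside 19.1% and 26.3% of all genes. In MLL-AF6 they are 3.66% and 62.2%, beside 18% and 38.9%, and in MLL-AF9 3.66% and 52.4%, beside 28.5% and 27.9%. The lower share in MLL-AF1p was thus near that of all genes. The Hsp90 co-chaperones load and time the Hsp90 cycle. Of 20 tested, 16 fell in MLL-AF6 and 10 in MLL-AF9 cells and none rose, whereas in MLL-AF1p cells 5 rose and 1 fell (medians -0.32, -0.20 and 0.07). As shares, 80% fell in MLL-AF6 and 50% in MLL-AF9 cells, beside 38.9% and 27.9% of all genes, and 25% rose in MLL-AF1p cells, near the 19.1% of all genes. By the test of the difference, 14 of the 20 (70%, beside 19.5% of all genes) had a lower effect in MLL-AF6 than in MLL-AF1p cells. In MLL-AF9 cells 8 (40%, beside 13.6%) had a lower effect than in MLL-AF1p. Stip1 (Hop), which links Hsp70 to Hsp90, rose in MLL-AF1p cells from 81.6 to 103 RPKM (log2 difference 0.34, SE 0.08, limma adjusted p = 0.00215). It fell to 61.3 from 77.4 RPKM in MLL-AF6 (-0.33, 0.00166) and to 84.1 from 102 RPKM in MLL-AF9 cells (-0.27, 0.00674). Ahsa1 (Aha1), which stimulates the Hsp90 ATPase, rose in MLL-AF1p (0.27, 0.0155) and fell in MLL-AF9 cells (-0.27, 0.0115), beside -0.19 in MLL-AF6 (0.0604). Cdc37, the kinase-specific co-chaperone, rose in MLL-AF1p (0.22, 0.0376) and fell in MLL-AF6 (-0.24, 0.0174) and MLL-AF9 cells (-0.46, 0.000143). Nudc, a co-chaperone with a p23-like fold, fell in MLL-AF9 (-0.53) and MLL-AF6 cells (-0.35), with 0.12 in MLL-AF1p (0.343). In MLL-AF1p the calls of Ahsa1 and Cdc37 were lost without DMSO replicate 2 (0.0629 and 0.205), and that of Cdc37 also without MI-2-2 replicate 1 (0.0975), 2 (0.0574) or 3 (0.0944).

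TRiC is the cytosolic chaperonin for actin and tubulin, and prefoldin is its partner. Of 14 genes tested, 8 fell in MLL-AF1p, 11 in MLL-AF6 and 11 in MLL-AF9 cells, and 1 rose, in MLL-AF6 (medians -0.22, -0.34 and -0.36). The lower shares were 57.1%, 78.6% and 78.6%, beside 26.3%, 38.9% and 27.9% of all genes. The TRiC subunit Cct5 fell from 239 to 142 RPKM in MLL-AF9 (-0.74, SE 0.07, limma adjusted p = 5.62e-07) and from 178 to 131 in MLL-AF6 cells (-0.44, SE 0.07, 0.000119), with 198 and 189 RPKM in MLL-AF1p (-0.07, 0.464). Cct2 fell in MLL-AF9 (-0.55) and MLL-AF6 cells (-0.32), with -0.15 in MLL-AF1p (0.153). The prefoldin subunit Pfdn5 fell in MLL-AF9 (-0.35) and MLL-AF1p (-0.22) and rose in MLL-AF6 cells (0.18, 0.0432), a rise lost without MLL-AF6 DMSO replicate 1 (0.129) or 3 (0.114) and, among others, with quantile normalization (0.0949).

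**Figure D5:**
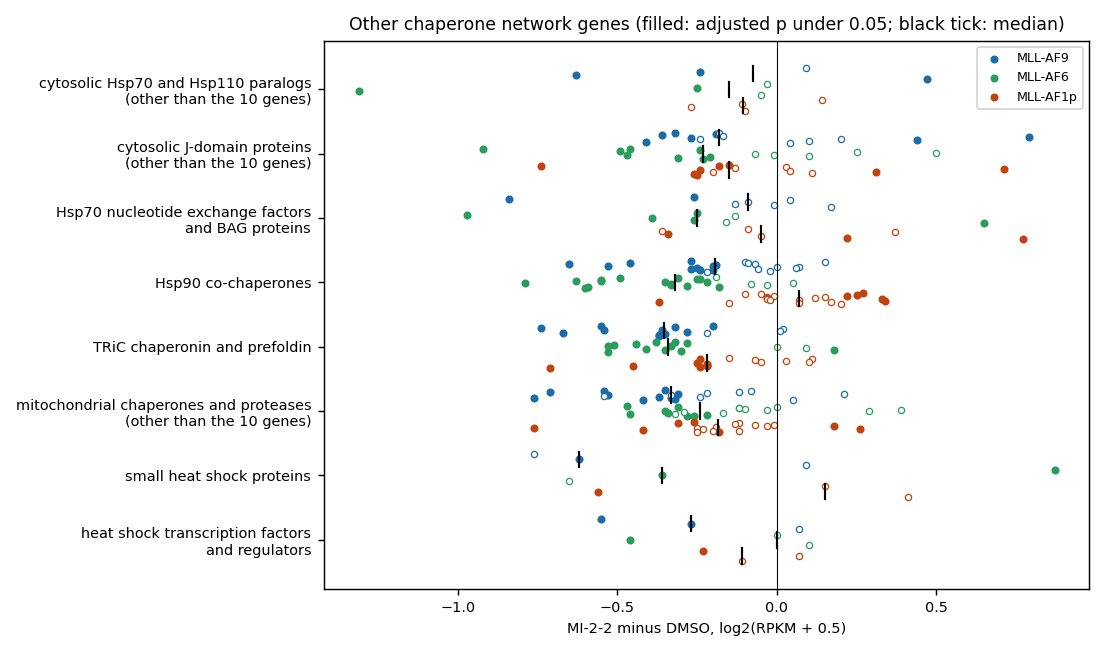
MI-2-2 minus DMSO on the log2(RPKM + 0.5) scale (x axis) for the 82 tested genes of 8 chaperone network lists (y axis), in MLL-AF9 (blue), MLL-AF6 (green) and MLL-AF1p cells (orange); filled points passed an adjusted p under 0.05, and black bars are list medians. The Hsp90 co-chaperone medians are -0.20, -0.32 and 0.07, and those of TRiC and prefoldin -0.36, -0.34 and -0.22.

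Of 13 other J-domain genes tested, 2 rose and 6 fell in MLL-AF1p, none rose and 8 fell in MLL-AF6, and 2 rose and 5 fell in MLL-AF9 cells. The higher shares were 15.4%, 0% and 15.4%, beside 19.1%, 18% and 28.5% of all genes, and the lower shares 46.2%, 61.5% and 38.5%, beside 26.3%, 38.9% and 27.9%. Dnaja2, the close paralog of Dnaja1, fell in all 3 (-0.32, -0.46 and -0.15), the last at an adjusted p of 0.0478 that many alternatives moved past the threshold (0.0513 to 0.231). Dnajc8, a J-domain protein of the spliceosome, also fell in all 3 (-0.41, -0.31 and -0.26). Dnajc7 fell in MLL-AF6 cells (-0.21, 0.00925). Among 7 nucleotide exchange factors and BAG proteins, 2 rose and 1 fell in MLL-AF1p, 1 rose and 4 fell in MLL-AF6, and none rose and 2 fell in MLL-AF9 cells, too few genes for shares. Bag3, the HSF1 target that joins Hsp70 to selective autophagy, had 9.33 and 12.2 RPKM in MLL-AF1p cells (0.37, 0.0669), a difference that passed without MLL-AF1p DMSO replicate 1 (0.0496) or MI-2-2 replicate 2 (0.0455), with median centring (0.0471) and by voom (0.048). Bag6 rose in MLL-AF1p cells (0.22, 0.0285), a call lost without DMSO replicate 2 (0.155), MI-2-2 replicate 1 (0.0995) or MI-2-2 replicate 3 (0.0782), and Bag1 fell in MLL-AF6 (-0.25) and MLL-AF9 cells (-0.26).

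Of 4 other cytosolic Hsp70 and Hsp110 genes tested, none passed in MLL-AF1p cells, beside 19.1% of all genes called higher and 26.3% lower. So few genes allow no contrast with Hspa8, Hsph1 and Hspa4, which rose there. In MLL-AF6 cells 2 fell, and in MLL-AF9 cells 1 rose and 2 fell. Hspa4l, the third Hsp110 gene, rose in MLL-AF9 cells from 10.8 to 15 RPKM (0.47, SE 0.09, limma adjusted p = 0.000243), with differences of -0.10 in MLL-AF1p and -0.05 in MLL-AF6. Hspa2, an Hsp70 best known from the testis, fell from 5.31 to 1.82 RPKM in MLL-AF6 (-1.31, SE 0.11, 1.12e-07) and from 3.3 to 1.95 in MLL-AF9 cells (-0.63). Hspa14 did not pass in any construct. Of 18 further mitochondrial chaperones and quality control proteases, 2 rose and 5 fell in MLL-AF1p, 8 fell in MLL-AF6 and 10 in MLL-AF9 cells. The lower shares of 27.8% and 44.4% in MLL-AF1p and MLL-AF6 were near the 26.3% and 38.9% of all genes, and that of 55.6% in MLL-AF9 was above 27.9%. Hspa9 (mortalin), the Hsp70 of the mitochondrial matrix, did not pass in any construct (-0.54, -0.29 and -0.25; SE 0.23 in each). Trap1, the mitochondrial Hsp90, fell in MLL-AF9 (-0.42, 0.00226) and MLL-AF6 cells (-0.26, 0.04), with -0.25 in MLL-AF1p (0.0565), and its MLL-AF6 call was lost without DMSO replicate 2 (0.195), DMSO replicate 3 (0.0878), MI-2-2 replicate 1 (0.126) or MI-2-2 replicate 3 (0.085). Htra2, a protease of the intermembrane space, rose in MLL-AF1p (0.26, 0.00342), whereas it fell in MLL-AF6 (-0.34) and MLL-AF9 cells (-0.37).

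Hsf1, the heat shock factor itself, fell in MLL-AF6 from 28.2 to 20.4 RPKM (-0.46, SE 0.08, limma adjusted p = 0.000174) and in MLL-AF9 cells from 28.1 to 23 (-0.27, SE 0.08, 0.00846), and read 18 and 19 RPKM in MLL-AF1p (0.07, 0.471). Hsf2 passed in none. Hsbp1, which binds HSF1 trimers, fell in MLL-AF9 (-0.55, 6.59e-06) and MLL-AF1p cells (-0.23, 0.0128) and was at 0.00 in MLL-AF6 (0.998), and its MLL-AF1p call was lost without MI-2-2 replicate 1 (0.0534). Only 3 of 11 listed small heat shock protein genes passed the filter. Hspb1 (Hsp25 in mouse) had a mean of 0.0151 RPKM over all libraries and, like Hspa1a at 0.0229, was below it. Hspb6 fell in all 3 constructs (-0.62, -0.36 and -0.56), Hspb9 passed in none, and Hspb11 rose in MLL-AF6 cells from 0.187 to 0.733 RPKM (0.87, 0.0457), a call that many alternatives ended (0.0507 to 0.154).

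To place 3 members, profiles over the 18 libraries were compared by the root mean square (RMS) difference of log2 values centred on each gene's mean. The search took genes that passed the filter, without the 10 chaperones and without genes named only by a number or a clone or model identifier. A gene left out could lie nearer, and ranks count the searched genes only. The genes nearest to Hspa8 were Ddx39 (0.146), an RNA helicase of mRNA export, Lrrc59 (0.159), a ribosome-binding protein of the endoplasmic reticulum, and Ncln (0.166), a protein of the same membrane, beside an RMS of Hspa8 about its own mean of 0.312. Ncln, for example, had means of 54.4 and 90.3 RPKM in DMSO and MI-2-2 in MLL-AF1p cells and 83.5 and 68.8 in MLL-AF6. The nearest chaperone of the 10 was Dnaja1 (0.205), at rank 19. Nearest to Hsp90aa1 were Plac8 (0.145), Ppat (0.156), the first enzyme of purine synthesis, and Gemin6 (0.159), of the SMN complex, with Hsp90ab1 at rank 17 (0.186) and an own RMS of 0.434. Nearest to Hspd1 were Xpo5 (0.120), the exportin of miRNA precursors, Tmem229b (0.123) and Timm8a1 (0.129), of mitochondrial import, with Hsp90ab1 the nearest of the 10 only at rank 255 (0.223) and an own RMS of 0.367. These likenesses are descriptions over 18 libraries that share their groups.

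The state of the cells moved with the treatment as well. The summed RPKM of 11 neutrophil granule genes was 3409 to 3857 in DMSO and 30953 to 35880 with MI-2-2 in MLL-AF1p, 2299 to 3146 and 18801 to 20629 in MLL-AF6, and 2920 to 4118 and 24816 to 28903 in MLL-AF9 cells. The sum of 12 monocyte and macrophage genes was 624 to 735 and 4216 to 4675, 1959 to 3943 and 10032 to 14270, and 534 to 1840 and 4258 to 5455, in the same order. Proliferation genes, 10 in all, summed to 916 to 1068 and 1035 to 1077 in MLL-AF1p, 596 to 673 and 642 to 783 in MLL-AF6, and 487 to 632 and 720 to 844 in MLL-AF9 cells. Immediate early genes, which respond to stress and handling within minutes, were all higher with MI-2-2 (8 of 8 in each construct). Their sum was 69.2 to 77.7 and 166 to 174 RPKM in MLL-AF1p, 92.3 to 114 and 317 to 329 in MLL-AF6, and 61.7 to 100 and 581 to 609 in MLL-AF9 cells. With MI-2-2 that sum was highest in MLL-AF9 and lowest in MLL-AF1p cells. The part of cell state and of immediate early induction in the chaperone values was not tested.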

How the data were processed

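RNA-seq was available for 18 libraries in 6 groups of 3, grouped by construct and treatment as titled. The authors deposited 1 table of RPKM values for 23418 genes with gene lengths. Per the submitters' processing notes, the build mm9 and the tools edgeR, HTSeq, Bowtie2 2.0.0.7 and CASAVA 1.8.2 were used, without stated roles; per the labels' protocols, RNA had a RIN of at least 8 and an unstranded TruSeq mRNA kit was used, with read layout given both as single and paired end. RPKM times kilobases summed to 1000000 in every library, and 100% of values were whole reads within 0.05, so depth (about 21180000 to 56300000 reads) was recovered.

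Genes with at least 1 RPKM in at least 3 libraries (11238) were put on the log2(RPKM + 0.5) scale and tested with limma 3.58.1 (R 4.3.3), with the 6 group means in 1 model (12 residual degrees of freedom), a trended prior and Benjamini-Hochberg adjustment over all genes per comparison. The pseudocount understates changes of low genes. The code was tested on simulated data. Alternatives were pseudocounts of 0.1 and 1, no filter, median centring, quantile normalization, constant prior variance, voom on recovered reads, a replicate block, each construct or pair fitted alone, and each library left out. Leaving out all libraries of 1 number was added after seeing the data. By voom, MLL-AF1p cells had 2377 genes higher and 3414 lower, MLL-AF6 cells 2006 and 4314, and MLL-AF9 cells 3168 and 3038.

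Named were the 10 genes, the 3 with the highest mean RPKM in each network list, and Hspa1a, Hspa9, Hsf1, Hspb1, Stip1, Bag3 and Trap1. The 10 genes and all lists were chosen with earlier results of these data known. Marker lists not given in full were megakaryocyte and stromal or endothelial genes: their summed RPKM ran from 1.65 to 14.9 and from 4.59 to 84 over the groups. The second sum was mostly 1 gene, Pecam1, with group means from 4.31 to 81.5 RPKM. No other gene of that list had a group mean above 0.758. Among the megakaryocyte genes the highest group mean was 10.2, for Vwf in MLL-AF6 cells with MI-2-2. The list of T and NK cell genes summed to at most 0.391. Some marker genes are not reported here. The 5 fusion target genes used as a check summed (RPKM in DMSO, then MI-2-2 libraries) to 204 to 214 and 93.5 to 96.6 for MLL-AF1p, to 206 to 231 and 54.3 to 62.1 for MLL-AF6, and to 83.6 to 114 and 55.8 to 58.4 for MLL-AF9.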

Additional observations from a re-analysis of the deposited data

Results flagged for a closer look

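In 10 cases the MI-2-2 effect on a chaperone gene differed between 2 constructs: the difference passed an adjusted p under 0.05 (limma, 1 fit of all libraries). The effect in MLL-AF6 minus that in MLL-AF1p cells was -1.45 for Hsph1, -1.06 for Hspa8, -0.93 for Dnaja1, -0.80 for Hsp90aa1, -0.48 for Hspa4 and -0.33 for Dnajb1 on the log2 scale. The effect in MLL-AF9 minus that in MLL-AF1p cells was -1.01 for Hsph1 and -0.81 for Hspa8. The effect in MLL-AF9 minus that in MLL-AF6 cells was 0.45 for Hsp90aa1 and 0.35 for Dnajb1. Of all genes tested, 31.1% differed in the first of these pairs, 35.1% in the second and 33.1% in the third. Of the 9 tested chaperone genes, 66.7%, 22.2% and 22.2% differed, so the last 2 pairs were below the share of all genes in either direction. In the direction of the calls the reading changes. In the second pair both genes were lower, where 13.6% of all genes were lower. In the third both were higher, where 2702 of 11238 genes were higher. With 2 genes called, these shares allow no contrast. These comparisons share the DMSO and MI-2-2 libraries of each construct, so they are not independent of each other.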

How the results depend on the processing

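Hspa8 and Hsph1 in MLL-AF1p cells, Hsp90aa1 in MLL-AF6 and MLL-AF9 cells and Hsp90ab1 in MLL-AF9 cells kept their calls under every alternative run. Each called value of the 10 genes was counted again under every alternative that held it. Counted so, 938 kept their call and 132 lost it, and no called value changed sign. Many alternatives left out a library outside the comparison, which moves only the shared estimate of spread and the adjustment, so these counts overstate how stable the calls are. The pseudocounts of 0.1 and 1 changed no call of the 10 genes. The 9 tested genes had at least 811 recovered reads in every library, and Hspa1b, at 4 to 42 reads, was too low to be compared. Depth differed between the constructs, and its part in the results was not tested.

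The values did not settle whether same-numbered DMSO and MI-2-2 libraries were paired. Deviations from the group means correlated between same-numbered libraries by 0.1, 0.21 and 0.03 for MLL-AF1p. They correlated by 0.49, 0.56 and 0 for MLL-AF6, and by 0.28, 0.46 and 0.01 for MLL-AF9. In every construct DMSO replicate 2 correlated best with MI-2-2 replicate 2 and negatively with the other MI-2-2 libraries. Not every library correlated best with its own number (MLL-AF9 DMSO replicate 1 with MI-2-2 replicate 3, 0.34). The replicate block was shared by all constructs, so pairing within a construct was not tested. With the replicate block, network genes higher in MLL-AF6 were 6 instead of 3, and no other count moved by over 1.5 times; the 10 genes had 1 higher and 2 lower in MLL-AF9, 5 lower in MLL-AF6 and 5 higher in MLL-AF1p, and the DMSO difference of Hspa4 between MLL-AF9 and MLL-AF6 was lost (adjusted p = 0.0506).

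The cause of the following changes was not tested. Without the libraries numbered 3 (all 6, added after seeing the data), network genes lower were 24 instead of 43 in MLL-AF9, 23 instead of 51 in MLL-AF6 and 4 instead of 23 in MLL-AF1p, and higher 1 instead of 3 in MLL-AF6 and 2 instead of 11 in MLL-AF1p. Of the 10 genes, 0 were then higher in MLL-AF9, 1 lower in MLL-AF6 and 2 higher in MLL-AF1p; effects differed for 0, 1 and 2 genes (MLL-AF9 against MLL-AF6, MLL-AF9 against MLL-AF1p, MLL-AF6 against MLL-AF1p), and DMSO levels for 0, 0 and 1. Without the libraries numbered 1, 2 genes were higher in MLL-AF9 and effects differed for 5 between MLL-AF9 and MLL-AF6; without those numbered 2, 0 were higher in MLL-AF9, 1 was lower in MLL-AF1p, 5 network genes were higher in MLL-AF6, effects differed for 1 between MLL-AF9 and MLL-AF6, and DMSO levels for 1 in that pair. Median centring gave 0 higher in MLL-AF9, 2 lower in MLL-AF6, 6 network genes higher in MLL-AF6 and 14 lower in MLL-AF1p, effects differing for 0 (MLL-AF9 against MLL-AF6) and 5 (MLL-AF9 against MLL-AF1p) and DMSO levels for 3 (MLL-AF9 against MLL-AF6). Quantile normalization gave 2 higher in MLL-AF9, effects differing for 1 and 4 in those pairs and DMSO levels for 2. DMSO levels of MLL-AF9 against MLL-AF6 were called for 3 genes without the filter and with a constant prior variance and for 1 when fitted alone, and those of MLL-AF6 against MLL-AF1p for 3 when fitted alone. Without the filter 1 network gene was higher in MLL-AF6, and MLL-AF9 fitted alone gave 0 higher.

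With any 1 library left out, the 10 genes had 0 to 4 higher and 2 lower in MLL-AF9, 2 to 6 lower in MLL-AF6 and 3 to 5 higher in MLL-AF1p; network genes higher and lower were 3 to 4 and 37 to 45, 1 to 6 and 42 to 53, and 7 to 12 and 14 to 26. The MLL-AF1p network counts were 7 higher without DMSO replicate 2 or MI-2-2 replicate 1, and 14 to 15 lower without DMSO replicate 3 or any MI-2-2 library. Effects differed for 2 to 6, 2 to 5 and 6 to 8 genes, and DMSO levels for 1 to 6, 3 to 4 and 4 to 7, in the pair order above.

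Small differences that had not passed the test changed sign in some alternatives. Quantile normalization gave 0.13 for Hspa8 in MLL-AF6, 0.10 for Hsp90ab1 in MLL-AF1p, 0.10 for the Hsp90ab1 effect of MLL-AF9 against MLL-AF6, -0.05 for Dnaja1 in MLL-AF9, and 0.05 for Hsbp1 and 0.03 for Hspa4l in MLL-AF6. Median centring gave 0.03 for Hsp90aa1 in MLL-AF1p, -0.04 for Hspa4 and -0.02 for Dnaja1 in MLL-AF9, and 0.08 for Hsbp1 and 0.03 for Hspa4l in MLL-AF6. Without the libraries numbered 1, Hsp90aa1 in MLL-AF1p was at 0.02 and Hspe1 in MLL-AF6 at -0.08. Without those numbered 2, Hspa4 and Dnaja1 in MLL-AF9 were at -0.04 and -0.11. Without those numbered 3 they were at -0.01 and -0.02, Hsp90aa1 in MLL-AF1p at 0.02 and Hsbp1 in MLL-AF6 at 0.04. With any 1 library left out, these values ran from -0.06 to 0.01 for Hsp90aa1 in MLL-AF1p, from -0.11 to 0.07 for that Hsp90ab1 difference, from -0.03 to 0.17 for Hspa4 and from -0.15 to 0.32 for Dnaja1 in MLL-AF9. They ran from -0.11 to 0.26 for Hspe1, from -0.08 to 0.00 for Hspa4l and from -0.02 to 0.02 for Hsbp1 in MLL-AF6, and from -0.42 to 0.00 for Hspa9 in MLL-AF1p.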
